A study of Mus musculus with 12 samples.

Results

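The cytosolic ribosomal protein genes encode the proteins that, together with ribosomal RNA, build the small and the large subunit of the ribosome that translates nuclear-encoded mRNA. They were followed here in the RNA of a myelin-enriched membrane fraction that had been purified from brains of mice. Members were all genes of the deposited table with an Rps or Rpl symbol of the standard form, together with Rpsa, Rplp0, Rplp1 and Rplp2, and without pseudogenes. This gave 83 of the 21937 genes listed, of which 32 carry a small subunit name and 51 a large subunit name. Among the 83 are 6 paralogs of another member, Rpl3l, Rpl7l1, Rpl10l, Rpl22l1, Rpl39l and Rps27l.

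All 12 samples came from male wild type mice of the inbred strain c57Bl6/N that had received no treatment named in the labels. There were 4 ages, P18 (postnatal day 18), P75 (postnatal day 75), 6 months and 24 months, with 3 samples each. The labels do not say whether the samples of an age are separate animals, so p-values measure only the spread between these samples, which may be technical. Values are gene read counts divided by 1 size factor per sample, called normalised counts below, and fold changes are on the scale of log2(value + 1).

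Ribosomes are assembled in the nucleolus from equimolar sets of proteins, and the mRNAs of these proteins are among the most abundant of most cells. Many of them open with a run of pyrimidines, the 5′ terminal oligopyrimidine (TOP) tract, through which mTORC1 signalling and the binding protein Larp1 control their translation and stability. Oligodendrocytes carry ribosomes and selected mRNAs, Mbp among them, out to the myelin sheath, and a membrane fraction can also hold RNA of other cells.

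Start sites in RefSeq (build GRCm38.p6) could be read for 63 of the 83 genes, Rps3a under its current symbol Rps3a1. Of these, 20 (31.7%) had on the gene's strand a run that opened with C, held at least 4 more pyrimidines and covered the listed start at any of its bases, against 9.7% of 11739 tested genes with a listed start and 9.41% of all 27025 genes in the promoter table. Such a run lay whole within the 15 bases to either side of the listed start in 42 (66.7%), against 43.0% of the tested genes. A match is a description of these letters and not a mapped start. A miss at the listed start likewise does not show that the mRNA lacks a tract. The following windows hold the 15 bases before and the 15 bases from the listed start, the latter lying in the first exon. They are shown for members whose RNA levels differ below, and capitals mark the pyrimidine tract. Rps6 lies at chr4:86857353-86857382 (minus strand), Rpl35a at chr16:33056467-33056496 (plus), Rpl38 at chr11:114668565-114668594 (plus), Rplp2 at chr7:141447636-141447665 (plus) and Rpl7a at chr2:26910792-26910821 (plus). Without a tract at the listed start are Rps3a at chr3:86142654-86142683 (minus), Rps2 at chr17:24720048-24720077 (plus), Rplp0 at chr5:115559452-115559481 (plus) and Rpl7l1 at chr17:46782642-46782671 (minus).
Rps6: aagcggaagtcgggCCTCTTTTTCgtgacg
Rpl35a: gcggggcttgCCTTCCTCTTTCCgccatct
Rpl38: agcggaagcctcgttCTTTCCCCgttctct
Rplp2: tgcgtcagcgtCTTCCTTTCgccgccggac
Rpl7a: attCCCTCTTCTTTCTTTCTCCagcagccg
Rps3a: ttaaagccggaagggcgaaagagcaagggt
Rps2: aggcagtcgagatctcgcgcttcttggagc
Rplp0: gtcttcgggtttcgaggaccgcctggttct
Rpl7l1: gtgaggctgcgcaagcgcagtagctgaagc

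Reads counted in genes numbered 20299052 to 27214385 per sample, and 16949 to 17261 genes were detected in each. All 14 markers of myelinating oligodendrocytes were detected, with 11.1% to 23.2% of all values at P18 and 6.08% to 10.2% at the later ages. Mbp alone took 9.47% to 20.8% at P18 and 4.76% to 8.48% later. Markers of other cells were present at lower shares, 0.807% to 1.22% for 13 neuronal genes and 0.0337% to 0.119% for 12 microglial genes, and 0.000154% to 0.00209% for 6 erythrocyte genes, 4 of which were listed at 0 in every sample. The other erythrocyte genes, Alas2 and Slc4a1, fell from P18 to P75 (means of 416 and 34.9 normalised counts at P18 and 41.1 and 2.92 at P75; adjusted p = 4.01e-08 and 0.000539, limma). In a bulk fraction, fewer cells of a type and less RNA per cell cannot be told apart.

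Of the 83 genes, 79 reached a value of 10 in at least 3 samples and were tested, and 77 of these did so in every sample. Rpl3l, for example, passed through the ages at which it is higher. Mean levels over the 12 samples were at least 50 for 74 members, from 715 normalised counts for Rps27l to 43092 for Rpl13a. Rpl13a was followed by Rpsa (36700) and Rps6 (35133). Per kilobase of transcript Rplp1, an acidic protein of the ribosomal stalk, was highest, at 64086 normalised counts per kilobase, and Rpl7l1 was lowest of the 74, at 527.

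The 9 members with means under 50 fall into different kinds. Rpl3l, Rpl10l and Rpl39l are paralogs known from muscle (Rpl3l) and testis (Rpl10l and Rpl39l), with means of 9.89, 0 and 4.23. Rpl26, Rpl30, Rpl34, Rps23 and Rps27 encode proteins that every ribosome uses, yet Rpl26 was listed at 0 in all 12 samples, and the means of Rpl30, Rpl34, Rps23 and Rps27 were 32.8, 29.3, 2.53 and 43.5 (Rpl26, Rpl30 and Rps23 were picked out after their values were seen). Their values are no estimate of how much of their RNA the fraction held. A median of 50.6% (0% to 98.6%) of the 50-base windows in the transcripts of the 9 were also found in transcripts of other genes, and a median of 61.4% (0% to 95.1%) in the 74, so reads could be shared with copies in both, and levels of single members are uncertain. Why these genes are so low was not tested.

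The genes took a larger share of the RNA at P75 than at the other ages. Their summed values made up 4.41%, 4.11% and 3.55% of all values in replicates 1 to 3 at P18, and 6.80%, 6.69% and 8.10% at P75. At 6 months the shares were 3.20%, 4.37% and 4.68%, and at 24 months 5.82%, 5.06% and 4.61%. The P75 samples lay above all 9 others, and the ranges of the other ages overlapped, apart from P18 and 24 months. The mean share was 7.20% ± 0.786 (SD, n = 3) in the P75 samples. It was 4.02% ± 0.437 in those of P18, 4.08% ± 0.782 in those of 6 months and 5.16% ± 0.611 in those of 24 months. With Mbp left out of the total, the means were 4.77% for P18, 7.62% for P75, 4.36% for 6 months and 5.52% for 24 months. P75 then still lay above all other samples, but P18 (3.92% to 5.19%) overlapped 24 months (4.87% to 6.30%), and its mean lay above that of 6 months rather than below it. Within their ages, P18 replicate 3 and 6 months replicate 1 were lowest. The 95% Wilson interval of a single sample, which covers counting error only, was narrow beside these spreads, for example 3.54% to 3.56% in P18 replicate 3. That sample also had the lowest share of myelinating oligodendrocyte markers at P18, 11.1% against 17.4% and 23.2%. Its share of neuronal markers was the highest there, 1.17% against 0.929% and 0.807%. The part of composition in its low share of ribosomal protein genes was not tested.

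**Figure D1:**
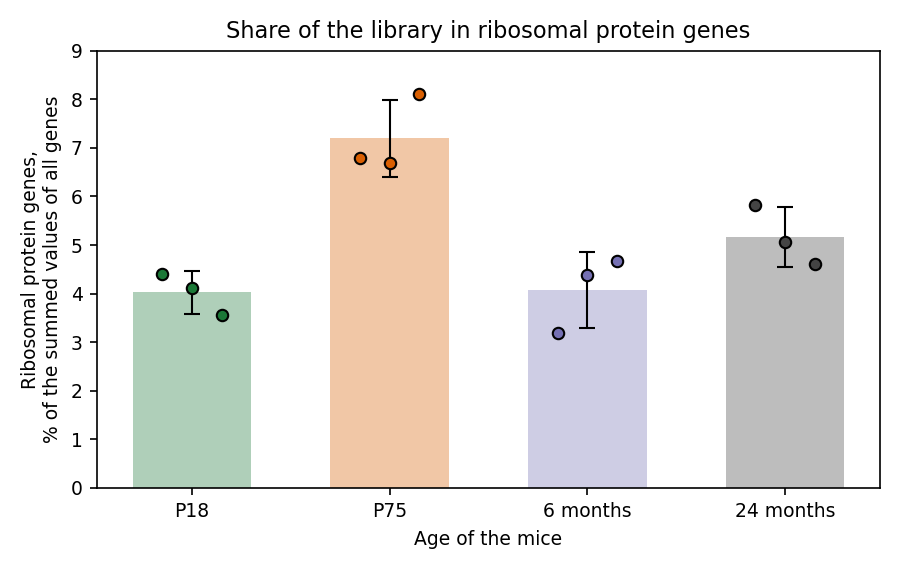
Share of the summed values of all genes that fell in the 83 ribosomal protein genes (vertical axis, percent) at each age (horizontal axis). Bars are means, error bars the SD and points the 3 samples of each age; the P75 samples lie at 6.69% to 8.10%, above all others.

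At some age 76 of the 79 tested members differed (limma F test), but so did 77.4% of all genes tested. The age of the highest level is given beside that of all genes. For 73 of the 79 the highest mean was at P75, as it was for 20.1% of all genes tested, and for 57 the lowest was at 6 months, as for 28.0% of all genes. The 3 that did not pass were Rpl30, Rpl4 and Rpsa (Rpl4 and Rpl30 lie outside the rule for named genes and were named after their values were seen).

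**Figure D2:**
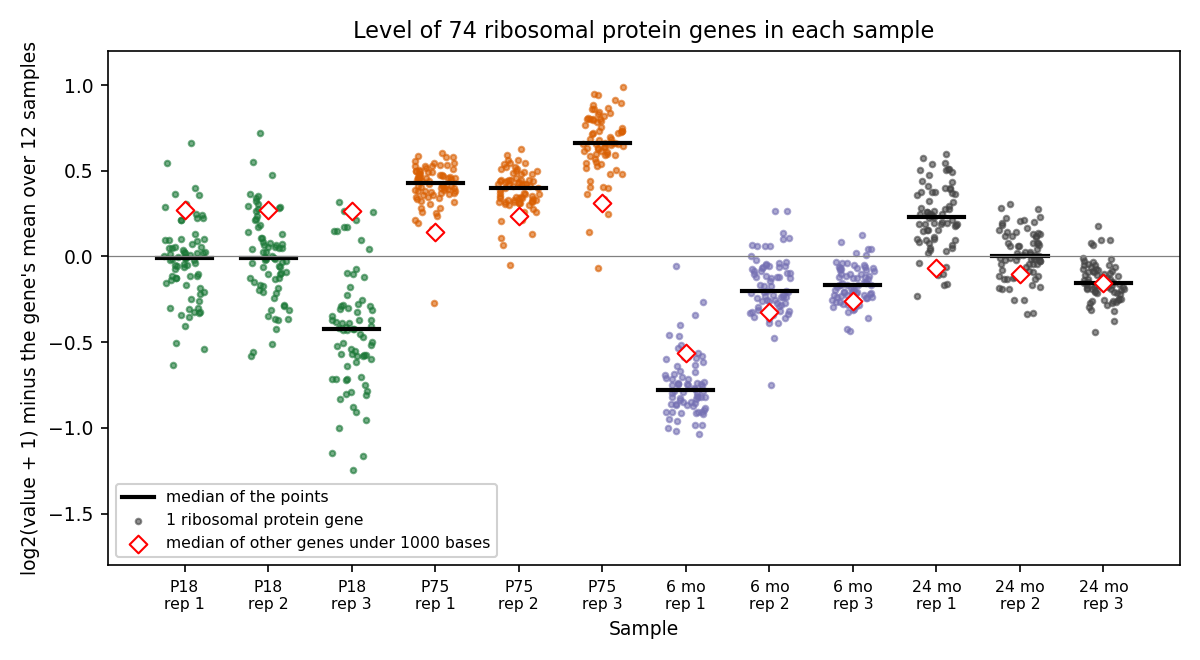
Level of each of the 74 members with a mean of at least 50 in each sample, as log2(value + 1) minus the mean of that gene over the 12 samples. Points are genes, black lines their median, and red diamonds the median of 1154 other genes with transcripts under 1000 bases; the median of the members is highest in the 3 P75 samples and lowest in 6 months replicate 1.

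From P18 to P75 most ribosomal protein mRNAs rose. Of the 79 members 57 were higher at P75 and 1 was lower (limma, Benjamini-Hochberg adjusted over 14987 genes), against 21.7% of all genes called higher and 18.7% called lower. The median log2 fold change was 0.65 over the members and 0.017 over all genes tested. Both subunits took part, with 24 of 31 small subunit members higher (median 0.67) and 33 of 48 large subunit members higher (median 0.59).

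The small subunit held the largest rises. Rps12, a small subunit protein, had 17988, 16716 and 10745 normalised counts at P18 and 35595, 34204 and 47271 at P75. The ages did not overlap, and the log2 fold change was 1.38 ± 0.22 (SE; adjusted p = 0.000138, limma). Rps3a, which lies near the exit of the mRNA from the small subunit, had 18763, 19490 and 12278 at P18 and 44288, 37168 and 45844 at P75. Every P75 sample was above every P18 sample, with P18 replicate 3 the lowest. Rps6, the substrate of the S6 kinases that act below mTORC1, had 22771, 22534 and 16593 at P18 and 48733, 44430 and 51105 at P75, again without overlap. Rps3, which lines the entry of the mRNA channel, rose by 1.21 ± 0.21 (adjusted p = 0.000236, limma). Only 2.96% of the windows of Rps3 occur in transcripts of other genes, whereas the figure was 90.1% for Rps12, 71.0% for Rps3a and 84.6% for Rps6. Rps29, a small zinc-binding protein, rose by 1.16 ± 0.21, and Rps19, whose human counterpart is mutated in Diamond-Blackfan anaemia, by 0.93 ± 0.19 (adjusted p = 0.000461 and 0.000827, limma).

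Rises in the large subunit reached a similar size. Rpl35a had 13205, 12784 and 10094 normalised counts at P18 and 24854, 24079 and 31960 at P75, without overlap. Its log2 fold change was 1.16 ± 0.18 (adjusted p = 0.000103, limma). Rpl13a, the most abundant member, rose by 1.13 ± 0.22 (adjusted p = 0.000646, limma). Rpl5 and Rpl11, which form a particle with 5S ribosomal RNA and can bind the p53 regulator Mdm2, rose by 1.05 ± 0.16 and 0.75 ± 0.16 (adjusted p = 0.000109 and 0.00176, limma). Rpl10, a protein that joins the large subunit late in assembly, rose by 0.58 ± 0.15, and Rpl38, known for its part in translating Hox mRNAs in the embryo, by 0.81 ± 0.18 (adjusted p = 0.0055 and 0.00184, limma). Rpl7 was called at 0.44 ± 0.16 (adjusted p = 0.0317, limma), a call that was lost without P18 replicate 3 (0.28) and on leaving out P75 replicate 1 (0.47) or P75 replicate 3 (0.37), and with quantile normalization, no filter, a GC trend removed or the 2 ages alone. Rpl36, Rpl39 and Rplp2 were called too, at 0.62, 0.61 and 0.57, but not without P75 replicate 3 (0.44, 0.51 and 0.46).

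The stalk of the large subunit, which recruits the GTPase translation factors, consists of Rplp0 and pairs of the acidic proteins Rplp1 and Rplp2. Rplp1 had 24922, 26679 and 18305 normalised counts at P18 and 39604, 33678 and 46546 at P75, and rose by 0.78 ± 0.20 (adjusted p = 0.00537, limma). Rplp0 had 15665, 17862 and 11589 at P18 and 14126, 12757 and 13442 at P75. Its P75 samples lay within the P18 range, and the log2 fold change was -0.14 ± 0.16 (adjusted p = 0.513, limma). The difference between the 2 genes was not tested.

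A minority of abundant members had no rise that passed. Rps2, a small subunit protein near the mRNA entry, had 23178, 26173 and 18387 normalised counts at P18 and 19294, 18980 and 20985 at P75, a log2 fold change of -0.18 ± 0.16 (adjusted p = 0.383, limma). Rpl7a had 14380, 14963 and 13987 at P18 and 12990, 14353 and 14669 at P75. For both genes the P18 and P75 samples overlapped. The log2 fold changes of Rpl29, Rpl18, Rpl10a, Rpl6 and Rpl15, all of the large subunit, ran from 0.07 for Rpl29 to 0.16 for Rpl15, with adjusted p from 0.278 to 0.683 (limma). Rpsa, the small subunit protein also known as the laminin receptor, had 38532, 43774 and 25084 at P18 and 44790, 42910 and 46192 at P75, which overlapped (0.36 ± 0.20, adjusted p = 0.167, limma).

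The paralogs differed from one another. Rpl7l1, a relative of Rpl7 found in assembling large subunits, was the 1 member that fell, from 1236, 1264 and 1226 normalised counts at P18 to 848, 989 and 977 at P75. No P75 sample reached the P18 range (-0.41 ± 0.09, adjusted p = 0.00122, limma), although the call was lost with values scaled to the total of each sample (-0.28, adjusted p = 0.0578). Rpl22l1, the paralog of the RNA-binding protein Rpl22, had 1752, 1705 and 1528 at P18 and 2487, 2399 and 3151 at P75 and rose by 0.68 ± 0.15 (adjusted p = 0.00175, limma). Rpl22 itself rose by 0.62 ± 0.17 (adjusted p = 0.00788, limma). Rps27l, a paralog known as a target of p53, had a log2 fold change of 0.08 ± 0.15 (adjusted p = 0.681, limma).

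**Figure D3:**
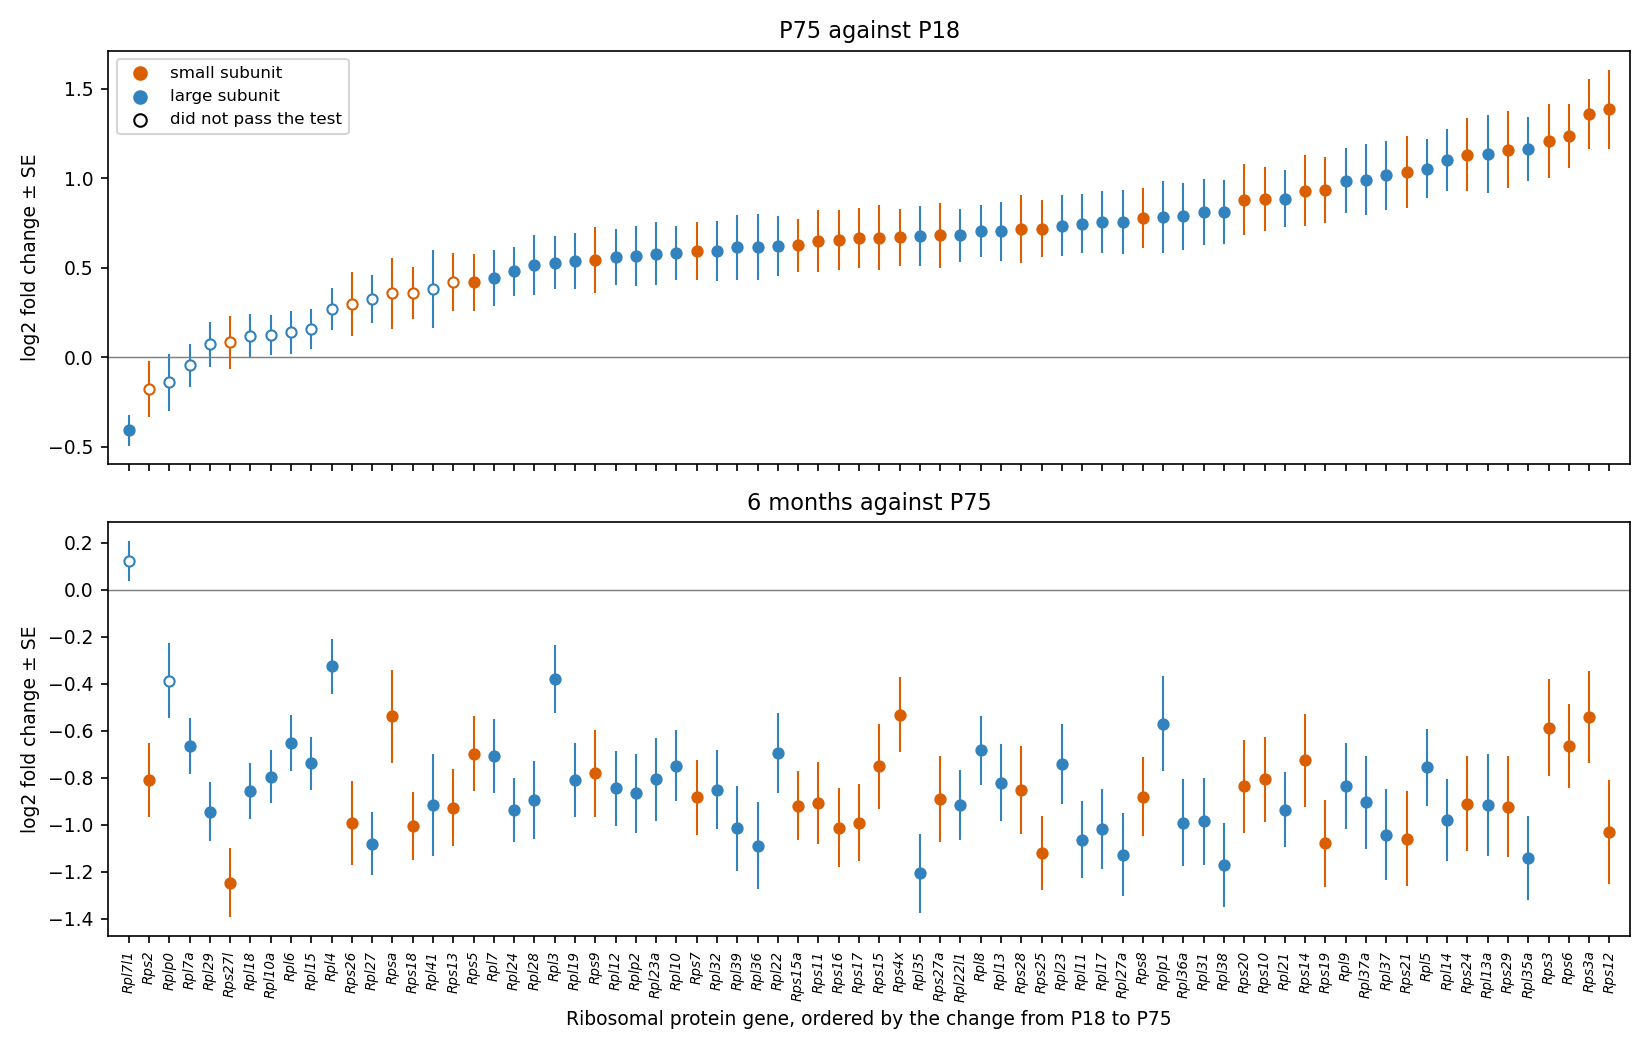
Log2 fold change of the 74 members with a mean of at least 50 from P18 to P75 (upper panel) and from P75 to 6 months (lower panel), ordered by the upper panel. Points are limma estimates with their SE, orange for small and blue for large subunit names, open where the adjusted p is above 0.05; Rpl7l1 is at the lower end of the upper panel and Rps12 at the upper end.

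Members with higher levels per kilobase had larger changes from P18 to P75. Pearson's r between the fold change and the log2 level per kilobase was 0.56 and Spearman's rho 0.58 over 74 members, a description across genes of the same 12 libraries in which the level includes the P75 values. The transcript lengths of some members, and so their levels per kilobase, are uncertain. The listed tract divided the changes little. Of 18 members with a tract at the listed start and a mean of at least 50, 15 rose, with a median log2 fold change of 0.72, and Rpl7a was at the lower end of them at -0.05. Of 38 without it, 25 rose and 1 fell, with a median of 0.64.

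The subunits did not move in full step. The ratio of the summed values of small to large subunit members was 0.749, 0.751 and 0.689 in the P18 samples and 0.792 to 0.822 in those of P75. It was 0.805 to 0.843 in the samples of 6 months and 0.822 to 0.856 in those of 24 months. All 3 P18 samples lay below all 9 later samples. Within a sample, the distance of a member from its own mean over the 12 samples also varied more between members at P18. The SD between members was 0.238 to 0.347 (log2) there against 0.109 to 0.189 at the later ages. As 9 of the 12 samples behind each mean are of later ages, this SD does not measure scatter between P18 samples.

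The count of risen members at P75 changed little with the processing. It was 56 with edgeR and 61 with DESeq2, and between 47 and 60 when single samples were left out. All genes called, in either direction, came to 5982, 5912 and 5118 to 6335 there, against 6051 in the limma fit of all samples. The median of the members was 0.49 without P18 replicate 3, 0.54 without P75 replicate 3 and at most 0.72, without P18 replicate 1. Scaling to the total of each sample moved the median of all genes by 0.12 (log2) and the share of calls that were higher from 53.7% to 73.7%. With that scaling 5442 of all genes were called in either direction, and 64 members were higher and none lower, with a median of 0.77. Microglial markers also rose from P18 to P75 (8 of 12 higher, summed share 0.0337% to 0.0370% and then 0.0541% to 0.0604%), and of the 14 myelinating oligodendrocyte markers 3 were higher and 7 lower. Of 3 tested olfactory neuron markers 2 were higher, S100a5 by 4.65 ± 0.58 and Omp by 2.65 ± 0.52 (adjusted p = 1.58e-05 and 0.000813, limma), and the summed share of 4 such genes was 0.0122% to 0.0139% and then 0.0163% to 0.0201%. The P75 sample with the highest olfactory share, replicate 3, also had the highest share of ribosomal protein genes. At P18 this was not so, since replicate 3 had the highest olfactory share (0.0139%) and the lowest share of ribosomal protein genes (3.55%). The part of cell composition in the rise of ribosomal protein genes was not tested.

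From P75 to 6 months nearly all ribosomal protein mRNAs fell. Of the 79 members 74 were lower and 1 was higher (limma), against 25.4% of all genes called lower and 27.1% called higher. Of the 74 members with a mean of at least 50, 72 were lower and none higher. The median was -0.88 over the members and 0.0029 over all genes tested. All 31 small subunit members were lower, and 43 of 48 large subunit members.

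Rpl35 went from 14802, 15626 and 18416 normalised counts at P75 to 5235, 7926 and 8340 at 6 months. Rpl38 went from 19392, 19634 and 25066 to 6802, 10844 and 11313, and Rpl35a from 24854, 24079 and 31960 to 9148, 13724 and 14188. In each, all 6 months samples lay below all P75 samples, and replicate 1 was the lowest. The log2 fold changes were -1.21 ± 0.17, -1.17 ± 0.18 and -1.14 ± 0.18 (adjusted p = 2.04e-05, 5.1e-05 and 6.79e-05, limma). Rps27l, which had not passed from P18 to P75, went from 852, 903 and 1130 to 330, 398 and 494 and fell by 1.25 on the log2 scale (SE 0.15, adjusted p = 4.79e-06, limma). Rpl3l had 17.0, 13.9 and 12.2 at P75 and 5.69, 1.78 and 4.87 at 6 months, but it was tested only because of its higher ages, so its call supports nothing. Rps2, Rpl7a and Rpl29, for which no rise had passed before, fell by 0.81, 0.67 and 0.94 on the log2 scale (adjusted p = 0.000402, 0.000231 and 1.44e-05, limma).

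Smaller decreases were seen in some members with large rises before. Rps6 changed by -0.66 ± 0.18, Rps3a by -0.54 ± 0.19 and Rps3 by -0.59 ± 0.21 (adjusted p = 0.00504, 0.0279 and 0.0245, limma). Because both comparisons share the P75 samples, no relation between them is drawn. The calls of Rps3a, Rps3, Rpsa and Rplp1 were each lost when a single sample was left out. Their values were -0.51, -0.56, -0.54 and -0.57 without P75 replicate 1, and -0.48, -0.53, -0.51 and -0.45 if P75 replicate 3 was the one left out. For 6 months replicate 1 they were -0.34, -0.38, -0.36 and -0.32, and the call of Rpsa was also lost without P75 replicate 2 (-0.57). Rplp0 had 14126, 12757 and 13442 at P75 and 8249, 12228 and 10745 at 6 months, a change of -0.39 ± 0.16 that did not pass (adjusted p = 0.0525, limma). Rpl7l1 had 986, 983 and 1088 at 6 months and 0.12 ± 0.09 (adjusted p = 0.245, limma).

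Transcript length moved with this decrease. Median transcript length was 774 bases for the tested members and 2717 bases for all genes tested. Among the 1154 other tested genes under 1000 bases 739 were lower and 59 higher at 6 months, with a median of -0.62. The 13599 longer ones had a median of 0.043. After a trend with transcript length was removed from each sample, 27 of the 79 members were lower and 1 higher, against 23.8% of all genes called lower and 25.3% called higher, and the median of the members was -0.20. With that step Rps6 was at -0.15, Rpl35a at -0.28 and Rpl38 at -0.13, none of which passed, and Rplp1, Rplp2, Rps27 and Rps29 were on the positive side without passing. Without 6 months replicate 1, 67 members were lower when no length trend was removed, with a median of -0.66. Of all genes 6576 were then called in either direction. Of 13 neuronal markers 8 were higher and 3 lower at 6 months (summed share 1.06% to 1.22% and then 1.03% to 1.15%). Of the 3 olfactory neuron markers S100a5 and Gng13 were lower, by -2.02 ± 0.58 and -1.04 ± 0.14 (adjusted p = 0.00772 and 1.78e-05, limma). Their list's summed share at 6 months was 0.00788% to 0.0103%, lowest in replicate 1. The part of length and of cell composition in the decrease was not tested further.

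**Figure D4:**
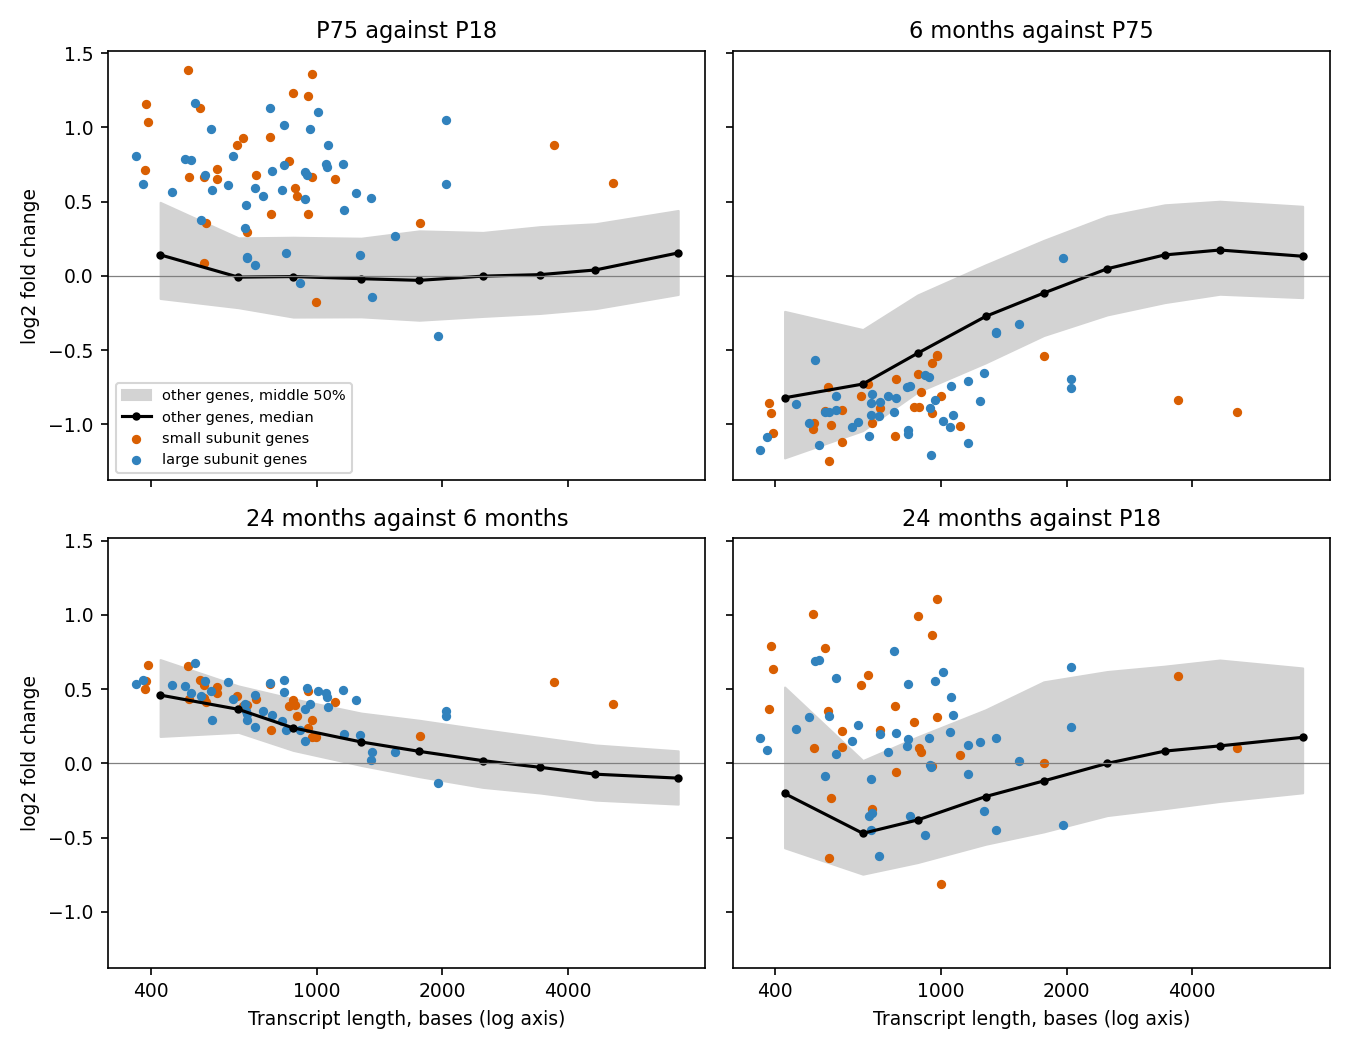
Log2 fold change against transcript length in bases (log axis) in the 4 comparisons, for the 74 members with a mean of at least 50 (orange small, blue large subunit names) and for all other tested genes in 9 length classes (black line median, grey band middle 50%). From P18 to P75 most members lie above a nearly level line, whereas from P75 to 6 months and from 6 to 24 months the other short genes move the same way as the members.

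Between P18 and P75 the other genes under 1000 bases had a median of 0.0020. With the length trend removed from that comparison 61 members were higher and 2 lower, against 20.3% and 21.5% of all genes, with a median of 0.60. In the single samples the median of other short genes relative to their own means was 0.26 to 0.27 in P18 samples and 0.14 to 0.31 in P75 samples. It was -0.56 to -0.26 in 6 months samples and -0.16 to -0.066 in 24 months samples. The lowest sample of these genes, 6 months replicate 1, was also the lowest for the ribosomal protein genes, at a median of -0.78. P18 replicate 3, where the ribosomal protein genes had a median of -0.43, was not low for the other short genes (0.26).

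From 6 to 24 months the members tended upward, and few passed. Of the 79 members 15 were higher and none lower (limma), against 10.8% of all genes called higher and 8.34% called lower. The median was 0.42 over the members, or 0.22 without 6 months replicate 1, and 0.030 over all genes. By unadjusted p under 0.05, 53 members passed. Rpl35a had 9148, 13724 and 14188 normalised counts at 6 months and 23527, 19342 and 16017 at 24 months, without overlap (0.68 ± 0.18, adjusted p = 0.0168, limma). Rps21 followed at 0.66 ± 0.20 and Rps12 at 0.65 ± 0.22 (adjusted p = 0.033 and 0.0483, limma). Rpl22l1 rose by 0.56 ± 0.15 and Rps27l by 0.53 ± 0.15 (adjusted p = 0.0179 and 0.0215, limma). The 24 months samples of Rpl22l1, 2366, 2127 and 1769, overlapped those of 6 months, 1138, 1360 and 1812.

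These calls varied with the samples fitted. No member passed when 6 months replicate 1, 24 months replicate 1 or 24 months replicate 2 was left out (limma, with 6, 10 and 40 members at an unadjusted p under 0.05). The median of the members was then 0.22, 0.32 and 0.43, so it did not shrink without 24 months replicate 2. Calls over all genes, in either direction, fell as well, from 2876 to 1279, 1527 and 1244. The count of members was 9 without P18 replicate 2 and 41 without P18 replicate 3, with 2750 and 3963 of all genes called. Leaving out P75 replicate 1 gave 9 members (2753 of all genes) and P75 replicate 2 gave 7 (2657 of all genes). Leaving out 6 months replicate 2 gave 4 (1499 of all genes) and 6 months replicate 3 gave 28 (2531 of all genes). The count was 16 with edgeR (3185 of all genes) and 31 with DESeq2 (3269 of all genes). With the length trend removed no member passed (limma, 5 at an unadjusted p under 0.05), against 7.92% of all genes higher and 8.65% lower, and the median was 0.095. The other genes under 1000 bases had a median of 0.30, and 360 of 1154 were higher. Microglial markers were higher in 8 of 12 cases (summed share 0.0614% to 0.0714% and then 0.0909% to 0.119%), and 1 of 3 olfactory neuron markers was higher (0.0105% to 0.0131% at 24 months). Their part in the result was not tested.

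At 24 months compared with P18 the members were divided. Of the 79 members 20 were higher and 11 lower (limma), both smaller shares than the 32.0% of all genes called higher and the 30.5% called lower. The median was 0.16, and it was 0.028 without P18 replicate 3 and 0.077 without 24 months replicate 1. Rps3a was higher by 1.11 ± 0.19, Rps12 by 1.01 ± 0.22, Rps6 by 0.99 ± 0.18 and Rps3 by 0.86 ± 0.21 (adjusted p = 0.000112, 0.000826, 0.000134 and 0.00163, limma). Rps6 had 47010, 40391 and 35390 normalised counts at 24 months, all above the 3 P18 samples. Among those lower were Rps2 (-0.81 ± 0.16), Rps27l (-0.63 ± 0.15), Rpl29 (-0.63 ± 0.13), Rpl7a (-0.48 ± 0.12) and Rpl7l1 (-0.42 ± 0.09), with adjusted p from 0.000254 to 0.00216 (limma). Rps2 had 14108, 12543 and 11674 at 24 months, all below the 3 P18 samples.

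The remaining lower calls were Rpl18, Rplp0, Rpl15, Rpl27, Rpl10a and Rpl6. With the length trend removed none of these 6, nor Rps27l, passed, and the members then stood at 46 higher and 4 lower, against 29.1% and 34.0% of all genes, with a median of 0.44. Without P18 replicate 3 the counts were 13 higher and 13 lower, and without 24 months replicate 1 they were 12 and 11. Of all genes 9323 and 8800 were then called in either direction, 51.1% and 51.7% of them higher. The lower calls of members came to 7 without P18 replicate 2, 7 without 24 months replicate 2 and 6 without 24 months replicate 3. All genes called in either direction came to 8778, 8505 and 8746 there, against 9367 in the fit of all samples. Scaling to the total of each sample gave 28 members higher and 8 lower. With that scaling 8595 of 14987 genes were called, 58.8% of them higher.

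Other genes of translation and ribosome assembly are described by their counts, and no difference from the members was tested. The 76 mitochondrial ribosomal proteins, which build the separate ribosome of the mitochondrion, had 1 member higher and 20 lower from P18 to P75 (median -0.10), 1 higher and 63 lower from P75 to 6 months (median -0.54) and 17 higher and none lower from 6 to 24 months. Mrps16, for example, went from 1281 ± 70.7 at P75 to 592 ± 58.9 normalised counts at 6 months (mean ± SD, n = 3; log2 fold change -1.12 ± 0.09, adjusted p = 1.27e-07, limma). From 6 to 24 months 10.8% of all genes were higher and 8.34% lower. Of the 1154 other genes under 1000 bases, 739 were lower at 6 months than at P75, and 360 were higher at 24 months than at 6 months. Among 20 translation factors and other TOP mRNAs 6 were higher and 3 lower at P75 than at P18, against 21.7% and 18.7% of all genes. The elongation factor subunits Eef1d and Eef1b2 rose by 0.84 ± 0.13 and 0.88 ± 0.17, whereas the helicase gene Eif4a1 changed by -0.54 ± 0.09 (adjusted p = 8.89e-05, 0.00078 and 0.000135, limma). At 6 months 3 of the 20 were higher and 12 lower than at P75, against 27.1% and 25.4% of all genes.

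Of 40 ribosome assembly factors 8 were higher and 6 lower at P75 than at P18, near the 21.7% and 18.7% of all genes. Ncl, the nucleolar protein nucleolin, was among the higher (0.68 ± 0.12, adjusted p = 0.000373, limma). Of 24 genes of mTORC1 and of TOP mRNA control 2 were higher and 9 lower. Cdkn1a, a p53 target listed there, changed by -1.36 ± 0.16 (adjusted p = 9.53e-06, limma). Of 10 host genes of small nucleolar RNAs, which guide the modification of ribosomal RNA, 3 were higher and none lower at P75, 9 were lower and none higher at 6 months, and 6 were higher and none lower at 24 months than at 6 months. Among them Gas5, a transcript that itself opens with a TOP tract, rose from 2366 ± 633 at P18 to 5559 ± 864 at P75 (mean ± SD, n = 3; log2 fold change 1.26 ± 0.20, adjusted p = 0.000165, limma). Of all genes 25.4% were lower at 6 months than at P75, and 10.8% were higher at 24 months than at 6 months. Other short genes moved the same ways from P75 to 6 months and from 6 to 24 months. From P18 to P75 they had a median of 0.0020, with 179 higher and 194 lower. The part of length in these lists was not tested.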

How the data were processed

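RNA of 12 myelin-enriched brain fractions was sequenced. For every gene and sample the authors deposited a signal value, which is a read count divided by the sample's size factor. The tools named are TopHat, HTSeq and DESeq, with mouse build mm9, per the submitters' processing notes. Versions, strand setting and library construction are not given in the sources used here. Values were whole multiples of 1 step per sample, so whole reads were recovered (100% of the values examined, within a tolerance of 0.02) for edgeR 4.0.16 and DESeq2 1.42.0.

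Genes with a value of at least 10 in at least 3 of 12 samples (14987) were tested with limma 3.58.1 (R 4.3.3, mean-variance trend, log2(value + 1), 4 age groups fitted together, two-sided, Benjamini-Hochberg, threshold 0.05). On simulated counts for P75 against P18 with 200 of the 14987 genes changed 2-fold, 87% of these were recovered and 0.101% of the others called. The simulated counts had the same dispersion for all genes and no shift shared by the genes of a sample. Both rates therefore need not hold for these libraries. Comparisons share samples. Transcript lengths, shared 50-base windows and GC content came from GENCODE vM21 (GRCm38), another build than the authors'. A length was the median over a gene's transcripts, whereas windows and GC content came from 1 transcript. These can differ widely, as for Rps15a (5130 bases, 591 windows) and Rpl22 (2048 bases, 425 windows). Rps15a was named for this after its values were seen. Levels per kilobase and the place in the length trend are uncertain for such genes. Length and GC trends were lowess fits (span 0.3) over 14832 genes with a length. Counting intervals and shares cover counting error only, since amplified reads are not independent molecules.

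Members named were, per comparison, the 5 largest rises and falls that passed, the 3 highest and 3 lowest by mean, those against the main direction, and a fixed set; outside the members, up to 3 genes per list with the lowest adjusted p. The members and lists were chosen with earlier results of these data known. The alternatives tried were edgeR, DESeq2, other scalings, pseudocount 10, other filters, length and GC trends, 2 ages alone, a replicate block and each sample left out. The values of 1 member are not reported here.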

Additional observations from a re-analysis of the deposited data

How the results depend on the processing

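The direction of the members' median was the same in every alternative run for all 4 comparisons. The counts of members called in P75 against P18, 6 months against P75 and 24 months against P18, and at any age, stayed within 1.5 times the reported ones except where the length trend was removed. That step gave 28 members called (1 higher, 27 lower) and a median of -0.20 in 6 months against P75, 0 members and a median of 0.095 in 24 months against 6 months, and 50 members (46 higher, 4 lower) and a median of 0.44 in 24 months against P18; Rplp1 (0.31), Rplp2 (0.072), Rps27 (0.18) and Rps29 (0.088) then changed sign in 6 months against P75. What the length trend reflects was not tested. Taken alone, the members' higher calls in 24 months against P18 went from 20 to 12 without 24 months replicate 1. The lower calls there went from 11 to 6 without 24 months replicate 3. All genes called in either direction went from 9367 to 8800 and 8746 in these 2 fits.

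In 24 months against 6 months the members called came to 31 with DESeq2, 3 with no filter on low values, 34 with the 2 ages alone and 8 with a GC trend removed, an alternative chosen after seeing the data. All genes called in that comparison came to 3269, 2479, 3967 and 3249 in the same order, and to 1782 with values scaled to the total. Leaving out single samples gave 0 to 41 members and 1244 to 3963 genes called there. The share at P18 was 4.77% with Mbp left out of the total. Among members named, 204 calls were lost and 60 gained over all alternatives, and 4 changed sign. Whether the same replicate number marks related samples could not be settled, since deviations within 3 samples per age are not independent. Over all ages, 18 pairs with the same number had correlations of their deviations of -0.18 to 0.16, others -0.15 to 0.19. Of 12 samples, 6 correlated best with their own number. Pairs of P75 and 6 months with the same number were at 0.15, 0.093 and 0.16, and the others at -0.13 to -0.028. Those of 6 and 24 months with the same number were at -0.18, -0.058 and -0.062. With the replicate number as a block, 5 members and 2583 of all genes were called in 24 months against 6 months. The levels of the 9 members with a mean under 50 normalised counts rest on few reads, and why they are low was not tested.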
